A study of Mus musculus with 4 samples.

Results

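The genes described here are 10 members of the JAK, STAT and SOCS signalling pathway, namely the kinases Jak1, Jak2 and Jak3, the transcription factors Stat3, Stat5a and Stat5b, and the inhibitors Socs1, Socs2, Socs3 and Cish. They were taken by gene symbol from the platform annotation, which gave 25 probe sets carrying 1 member symbol each, out of 45037 probe sets that are not controls (10 of 18193 named genes). Another 2 probe sets carry the symbols of both Jak3 and Insl3 and were not assigned to either gene. Affymetrix mouse arrays, 4 in all, read the RNA of double-positive (DP) cells, the thymocyte stage that carries both CD4 and CD8. The normal group holds 2 samples of DP cells from the thymus of mice labelled WT. The tumour group holds 2 samples of DP cells from a peripheral tumour (thymoma) that over-expresses Notch1-IC, the active intracellular part of the receptor Notch1, with the genotype label T-ALL, T-cell acute lymphoblastic leukaemia. The genetic background label of all 4 samples is WT C57/BLACK6. The sources used here do not give ages, the promoter that drives Notch1-IC, the number of animals or the way the DP cells were isolated. One label, the sample type, describes the 2 normal samples as tumour cells too, against their titles, sources and genotypes, and the groups follow the titles.

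Cytokines bind receptor chains at the cell surface, and JAK kinases attached to these chains phosphorylate STAT factors, which then enter the nucleus and bind DNA. Genes that STAT factors switch on include those of the SOCS family and Cish, whose proteins bind receptors or JAKs and dampen the signal again. In the thymus, interleukin 7 acts through Jak1, Jak3 and Stat5 to keep early thymocytes alive, while DP cells are known for a low response to cytokines and for Socs1 expression.

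Of the 4 inhibitor genes, Socs3, Socs2 and Cish were higher in the tumour arrays and Socs1 was lower. The promoters of the inhibitors are shown here because STAT dimers are known to prefer the spaced palindrome TTCNNNGAA, which reads the same on both strands. The sequences are RefSeq's on GRCm38.p6, 280 bases from 250 before the annotated start to 30 after it, 5' to 3' on the gene's strand, with matches to TTCNNNGAA in capitals. Socs2 is named without a sequence. The Cish stretch lies at chr9:107296409-107296688 on the plus strand, that of Socs3 at chr11:117969337-117969616 on the minus strand and that of Socs1 at chr16:10785507-10785786 on the minus strand.
Cish: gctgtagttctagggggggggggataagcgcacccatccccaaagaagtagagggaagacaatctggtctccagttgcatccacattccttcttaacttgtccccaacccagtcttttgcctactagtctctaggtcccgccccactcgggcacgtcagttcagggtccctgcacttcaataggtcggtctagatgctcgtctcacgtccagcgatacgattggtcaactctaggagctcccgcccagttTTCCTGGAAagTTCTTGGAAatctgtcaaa
Socs3: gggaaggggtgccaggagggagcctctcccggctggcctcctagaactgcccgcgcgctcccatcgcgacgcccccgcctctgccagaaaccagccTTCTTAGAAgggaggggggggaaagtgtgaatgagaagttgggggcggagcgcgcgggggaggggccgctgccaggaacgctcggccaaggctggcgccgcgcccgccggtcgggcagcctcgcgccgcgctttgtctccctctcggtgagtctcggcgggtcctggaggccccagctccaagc
Socs1: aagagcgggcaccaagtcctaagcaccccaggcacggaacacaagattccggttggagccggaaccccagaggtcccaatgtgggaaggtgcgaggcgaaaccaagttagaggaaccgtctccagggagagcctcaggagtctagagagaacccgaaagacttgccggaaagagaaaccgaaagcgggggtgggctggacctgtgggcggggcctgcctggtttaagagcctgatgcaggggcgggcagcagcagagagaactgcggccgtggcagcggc
Cish had 2 matches, beginning 0 and 11 bases after the start, and Socs3 had 1, beginning at -154. Socs1 had 0 matches to TTCNNNGAA in this stretch. Among 32851 stretches of the same length in the table, 7.83% held at least 1 match and 0.408% held 2 or more. The stretches of Jak1, Jak2, Jak3, Stat3, Stat5a and Stat5b had 0 matches. A match describes letters only, and no binding was measured.

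Values are intensities per probe set in arbitrary units, already normalized by the authors, and differences are log2 of tumour minus normal from limma, with a standard error (SE, n = 2 arrays per group) and a p-value adjusted over all 45037 probe sets, called at an adjusted p below 0.05. Control probe sets for bacterial genes, 27 in all, set the background, taken per array as the brightest of them (12.3 to 17.8). Across 10772 bright probe sets, which are not independent replicates, r was 0.990 within the normal group, 0.991 within the tumour group and 0.819 to 0.826 between them. Whether replicates are separate animals is not labelled, so the p-values cover only the spread of these samples, possibly a technical one, and the small number of arrays limits the precision. Thymus against peripheral site, or a batch along the same lines, cannot be told apart from the tumour state. A sign of RNA quality, the 3' over 5' signal of control transcripts, was 1.24 in normal and 2.49 in tumour arrays for beta-actin and 0.905 against 1.85 for Gapdh (means of 2 arrays per group), and its part in the results was not tested. In bulk RNA, fewer cells of a type and less RNA per cell cannot be told apart.

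Of the 25 member probe sets, 6 rose and 7 fell in the tumour arrays, against 22.8% of all probe sets called in either direction (11.3% higher and 11.5% lower). Of the 25, 18 lay above background on all 4 arrays. Of these 18, 5 rose and 7 fell, against 45.5% of all probe sets with that property (22.1% higher and 23.4% lower). The 2 groups did not overlap for 17 of the 25, with the tumour arrays higher for 10 and lower for 7, against 56.7% of all probe sets (27.6% higher and 29.1% lower). By role, 5 of 11 inhibitor probe sets rose and 1 fell, 1 of 8 STAT probe sets rose and 4 fell (median -0.36), and 0 of 6 JAK probe sets rose and 2 fell (median -0.10). The inhibitor median was 1.35 as measured, the value of a Socs2 probe set above background on 1 array only, and 1.85 over the 9 probe sets not at background in both groups, with a dim group raised to background. The median log2 difference was 0.07 over the members and -0.02 over all probe sets. These calls rest on limma's trend and robust variance prior, which lets the prior follow the intensity. With limma's default prior 0 of 45037 probe sets passed (0.00%), while 11337 of all and 13 of the 25 member probe sets had an unadjusted p below 0.05. With the default prior on 1 probe set per gene, adjusted over 18193 genes, Socs3, Socs2, Socs1 and Jak1 passed.

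**Figure D1:**
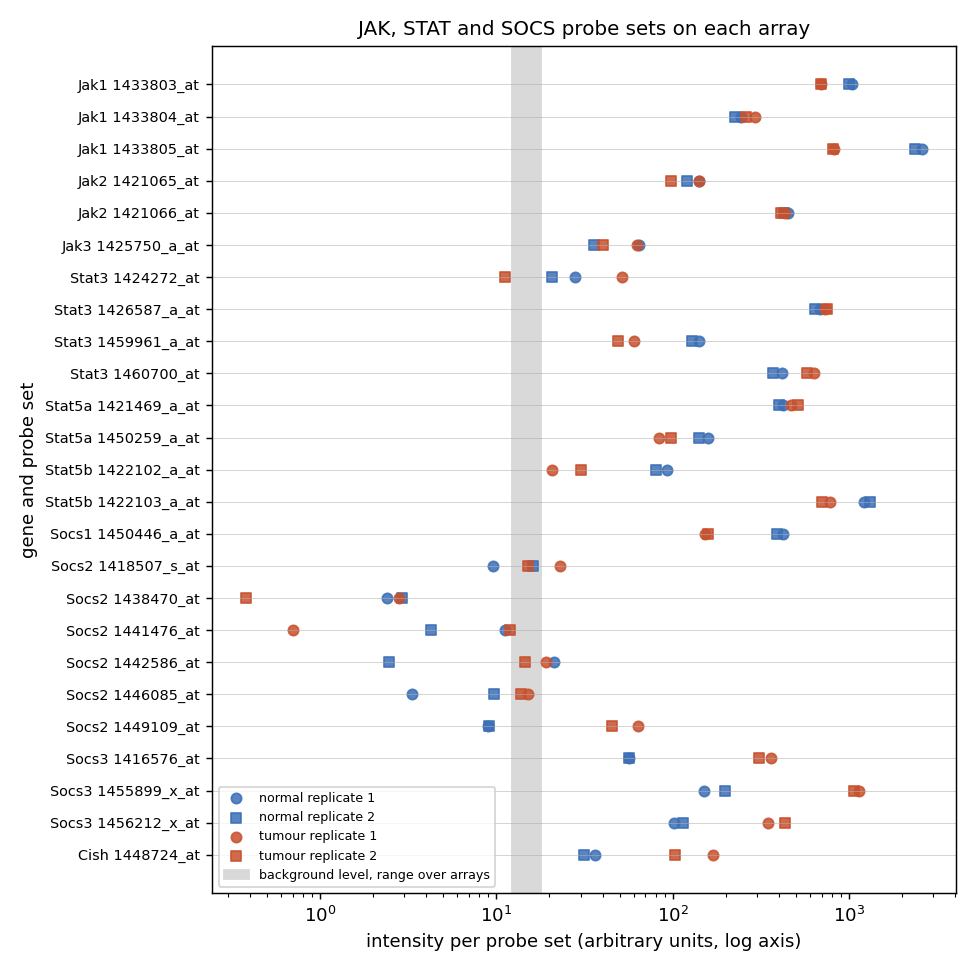
Intensity of each member probe set (rows) on each of the 4 arrays, on a log axis in arbitrary units, with normal arrays in blue, tumour arrays in red, replicate 1 as circles and replicate 2 as squares, and the range of background levels (12.3 to 17.8) in grey. Both tumour arrays lie to the right of both normal arrays for the 3 Socs3 probe sets and Cish and to the left for Socs1, while 2 Socs2 probe sets lie at or below background throughout.

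Socs3, which blocks signalling from gp130 and related cytokine receptors, rose on all 3 of its probe sets. On the probe set 1416576_at, intensities were 56.3 and 56.5 in the normal arrays and 359 and 307 in the tumour arrays. That is a rise of 2.56 ± 0.17, a 5.89-fold difference (adjusted p = 5.65e-06). The brightest probe set, 1455899_x_at, read 150 and 198 in the normal arrays and 1147 and 1061 in the tumour arrays. It rose by 2.68 ± 0.14, a 6.40-fold difference (adjusted p = 1.44e-06). The third, 1456212_x_at, went from 102 and 114 to 347 and 435, a 3.59-fold difference (1.85 ± 0.16, adjusted p = 3e-05). The tumour arrays were the higher ones on all 3 probe sets, with no overlap. Probe sets of the _x_at class may also bind other transcripts, whereas 1416576_at is not of that class.

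Cish, the cytokine-inducible SH2 protein and a known target of Stat5, rose on its single probe set, 1448724_at. Normal arrays gave 36.4 and 31.3 and tumour arrays 169 and 103. The tumour arrays differed from each other more than the normal ones did, yet both lay above the higher normal array. The rise was 1.96 ± 0.29, a 3.90-fold difference (adjusted p = 0.000829). It did not pass with the default prior on 1 probe set per gene (adjusted p = 0.0710).

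Socs2, which limits growth hormone and other cytokine signals, has 6 probe sets, of which 1 was called. On 1449109_at both normal arrays lay below background, at 8.93 and 9.10, and the tumour arrays stood at 63.7 and 45.0. With the normal arrays raised to their background level, the tumour arrays were at least 3.83-fold higher (adjusted p = 0.00276 for the measured values). The other 5 probe sets did not pass. Of these, 1438470_at and 1441476_at lay at or below background on all 4 arrays, and the remaining 3 read between 2.45 and 22.8 over the arrays. The mean of the 6 probe sets differed by 0.51 and did not pass (adjusted p = 0.718), so the call of Socs2 rests on 1 probe set.

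Socs1, an inhibitor of JAK kinase activity that limits interferon gamma and common gamma chain cytokines, moved the other way. Its probe set, 1450446_a_at, read 423 and 391 in the normal arrays against 153 and 159 in the tumour arrays. Both tumour arrays lay below both normal arrays. Socs1 fell by 1.38 ± 0.13, a 2.61-fold difference (adjusted p = 4.83e-05).

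**Figure D2:**
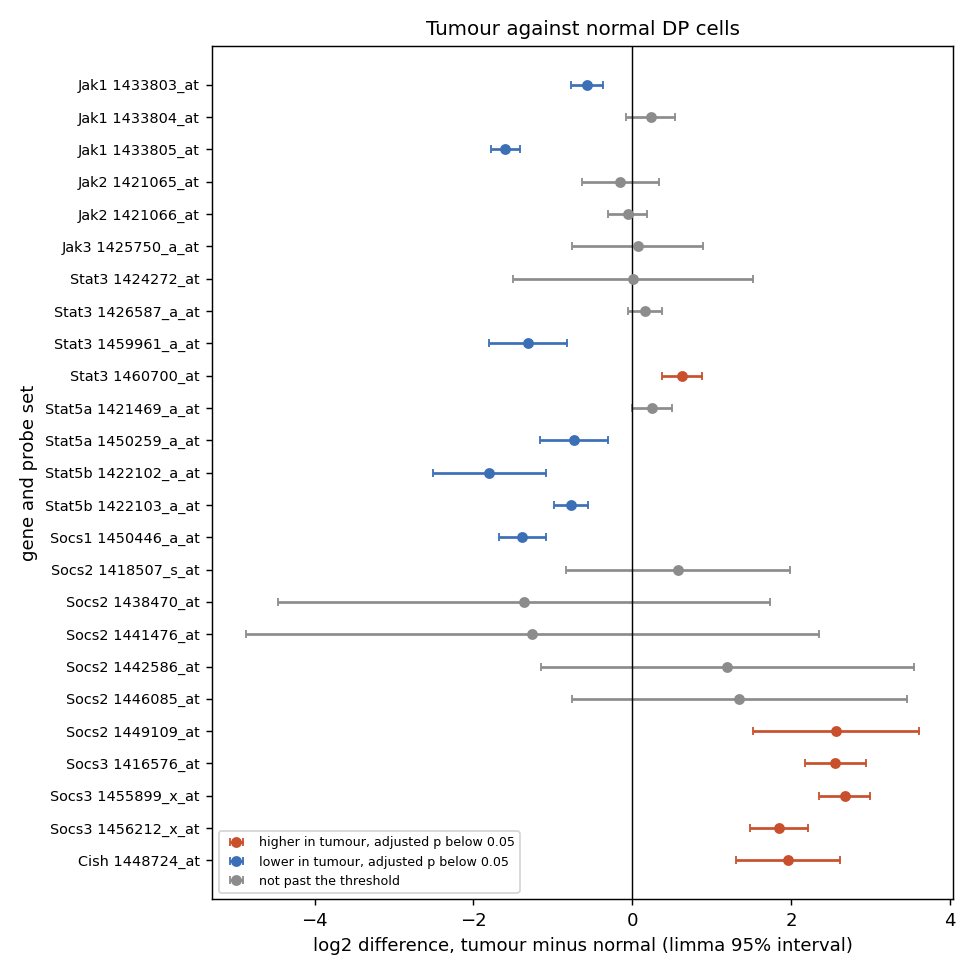
Log2 difference, tumour minus normal, of each member probe set (rows) with limma's 95% interval (bars), red where higher and blue where lower at an adjusted p below 0.05 and grey otherwise. The 3 Socs3 probe sets, Cish and 1 Socs2 probe set lie between 1.85 and 2.68, Socs1 lies at -1.38, and the probe sets of Jak1, Stat3 and Stat5a do not lie together.

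Among the kinases, Jak1, which pairs with many cytokine receptors, was lower on 2 of 3 probe sets. On 1433805_at, the brightest, normal arrays read 2585 and 2364 and tumour arrays 822 and 811. This probe set fell by 1.60 ± 0.08, a 3.03-fold difference (adjusted p = 1.1e-06). On 1433803_at the values were 1046 and 1006 against 694 and 690, a fall of 0.57 ± 0.09 (adjusted p = 0.00111). On 1433804_at they were 245 and 227 against 295 and 260, a log2 difference of 0.23 with a 95% interval from -0.07 to 0.54 (adjusted p = 0.295). The tumour arrays were thus below the normal ones on 2 probe sets and slightly above on the other, without overlap on any. The mean of the 3 probe sets fell by 0.64 (adjusted p = 0.00179).

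Neither probe set of Jak2, the kinase of growth hormone and erythropoietin receptors, passed the test. On 1421066_at, arrays read 449 and 428 (normal) and 435 and 410 (tumour), a log2 difference of -0.05 with a 95% interval from -0.30 to 0.19. On 1421065_at they read 141 and 120 against 141 and 98.3, a difference of -0.15 with an interval from -0.64 to 0.34. The groups overlapped on both. When the arrays were scaled to bacterial spike controls instead, which shifts all tumour values down by 0.60, both Jak2 probe sets passed as lower, at -0.65 (adjusted p = 0.00111) and -0.75 (adjusted p = 0.0231), close to that common shift.

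Jak3, the kinase of the common gamma chain, was measured on 1425750_a_at alone. Arrays read 64.0 and 35.8 (normal) and 62.3 and 40.4 (tumour), so that the spread within each group exceeded the difference of 0.07 (95% interval from -0.76 to 0.89, adjusted p = 0.931). A probe set shared with Insl3, 1423021_s_at, read 53.9 and 33.1 against 116 and 91.1 and was higher by 1.28 ± 0.30 (adjusted p = 0.0111). Which of the 2 genes it measured is not known here. The other shared probe set, 1427092_at, read 0.52 and 14.6 against 1.25 and 1.40, above background on 1 array only. Its difference of -1.06 did not pass (adjusted p = 0.737).

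Of the STAT factors, Stat5b was lower on both of its probe sets. On 1422103_a_at it read 1224 and 1312 in normal and 784 and 706 in tumour arrays, a fall of 0.77 ± 0.09 (1.70-fold, adjusted p = 0.000247). The dimmer 1422102_a_at went from 93.3 and 80.5 to 20.6 and 30.2, a fall of 1.80 ± 0.31 (3.48-fold, adjusted p = 0.00229). Both tumour arrays lay below both normal arrays on each. The dimmer one did not pass without normal replicate 1 (adjusted p = 0.0618).

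Stat5a, the close relative of Stat5b that responds to the same cytokines, gave an unclear picture. The brighter probe set, 1421469_a_at, read 424 and 402 against 471 and 512, a difference of 0.25 ± 0.11 that did not pass (adjusted p = 0.151). The other, 1450259_a_at, read 159 and 141 against 83.4 and 97.3 and fell by 0.73 ± 0.19 (adjusted p = 0.0193). The groups stayed apart on both probe sets, with the tumour arrays on opposite sides. The fall on 1450259_a_at did not pass without normal replicate 1 (adjusted p = 0.164), normal replicate 2 (adjusted p = 0.0741) or tumour replicate 1 (adjusted p = 0.0996). The mean of both probe sets was -0.24 (adjusted p = 0.255). With spike scaling both passed as lower, 1421469_a_at at -0.35 (adjusted p = 0.0378) and 1450259_a_at at -1.33 (adjusted p = 0.000478).

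Stat3, which carries signals of interleukin 6 and related cytokines, was called in opposite directions on different probe sets, as 388 of 9010 genes with several probe sets were. On 1460700_at it rose from 414 and 370 to 635 and 579, by 0.63 ± 0.11 (adjusted p = 0.00264). On 1459961_a_at it fell from 141 and 128 to 60.1 and 49.0, by 1.31 ± 0.22 (adjusted p = 0.00172). The brightest probe set, 1426587_a_at, read 684 and 638 against 728 and 748, a difference of 0.16 that did not pass (adjusted p = 0.303). With spike scaling it passed as lower, at -0.44 (adjusted p = 0.0053). On 1424272_at the tumour arrays read 51.7 and 11.2, on either side of the normal values of 27.7 and 20.7. Which of these probe sets measures the same transcript form is not known here, and the rise on 1460700_at shrank to 0.03 with spike scaling (adjusted p = 0.880).

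The rest of the pathway was read from lists of genes by role, each gene by its brightest probe set, against 28.0% of all genes called in either direction (16.3% higher and 11.7% lower) and a median difference of 0.09. Of 80 measured genes in these lists, 22 rose and 18 fell. Among 4 other JAK and STAT genes, Tyk2, the kinase of type I interferon receptors, rose from 104 and 77.5 to 192 and 208 (1.16 ± 0.19, adjusted p = 0.00182). Stat4, the factor of interleukin 12 signalling, fell from 171 and 181 to 94.0 and 107 (0.81 ± 0.17, adjusted p = 0.00719). Among 4 other SOCS genes, Socs5 rose by 1.42 ± 0.23 and Socs7 by 0.74 ± 0.14, while Socs4 fell by 0.36 ± 0.11.

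Among 16 other negative regulators, 5 rose and 5 fell, with a median of -0.03. Cblb, a ubiquitin ligase that restrains T-cell activation, rose by 1.59 ± 0.11, Ptpn2, a phosphatase that acts on JAK1, JAK3 and STAT proteins, by 1.39 ± 0.08, and Cul5, the cullin of SOCS box ubiquitin ligases, by 1.22 ± 0.13. Pias1 fell by 1.43 ± 0.10 and Ptpn6, the phosphatase SHP-1, fell by 1.32 ± 0.10. Pias3 fell from 60.3 and 49.4 to 13.7 and 28.25 (adjusted p = 0.0345), with tumour replicate 1 below background, so that no fold is given.

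Of 27 receptor chains that use JAKs, 7 rose and 6 fell, with a median of 0.17 as measured. The median was 0.08 over the 24 chains not at background in both groups, with a dim group raised to background. Il2ra, the alpha chain of the interleukin 2 receptor, rose by 5.86 ± 0.15 and Il7r, the interleukin 7 receptor alpha chain, by 2.69 ± 0.13. Il2rb, the interleukin 2 receptor beta chain, rose from 4.30 and 16.2 to 164 and 173 (adjusted p = 0.000311) and Il6ra, the interleukin 6 receptor, from 18.6 and 11.3 to 112 and 81.4 (adjusted p = 0.000559), each with 1 normal array below background, so that no fold is given. Csf2rb, a shared beta chain of myeloid growth factor receptors, was at least 5.28-fold higher, and Csf3r at least 1.99-fold. Il9r was called (adjusted p = 0.0344) with all 4 arrays at or below background, so no fold is given. Il4ra, the interleukin 4 receptor, fell by 2.32 ± 0.14 and Il21r, the interleukin 21 receptor, by 1.48 ± 0.13. Of the interferon gamma receptor chains, Ifngr1 fell by 1.36 ± 0.08 and Ifngr2 by 1.24 ± 0.29. Ifnar1, a type I interferon receptor chain, fell by 0.92 ± 0.16 and Il6st, which encodes gp130, by 0.64 ± 0.11. These 6 genes that fell, and Csf3r, are named after their values were seen. Il2rg and Prlr were not analysed here.

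**Figure D3:**
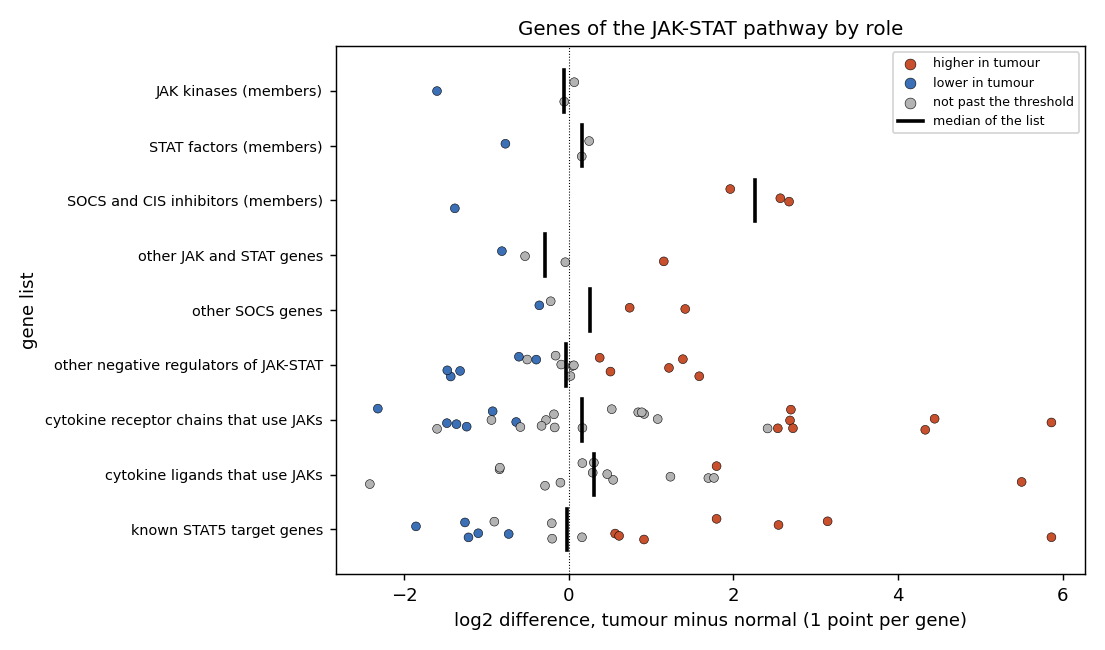
Measured log2 difference, tumour minus normal, of each gene (points) by its role (rows), with the median of each list as a black line, red for genes called higher, blue for genes called lower and grey for the rest. The 4 member inhibitors, 3 called higher and 1 lower, have a measured median of 2.27. It is 1.95 with the dim normal arrays of Socs2 raised to background. The lists of other regulators and of STAT5 targets, with medians of -0.03 and -0.02, also hold called genes on both sides.

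Of 15 cytokine ligands, 2 rose and 0 fell at the adjusted threshold, and 10 of 15 lay at or below background in both tumour arrays. Il10, an anti-inflammatory cytokine, was at least 12.3-fold higher, and Osm, oncostatin M, rose by 1.80 ± 0.26. Il2, Il6 and Il21 were at or below background in both groups.

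Of 16 genes known as STAT5 targets, 7 rose and 5 fell, with a median of -0.02. The list does not set apart targets that STAT5 raises from those it lowers, so these counts are no measure of STAT5 activity. Besides Il2ra and Osm, Gzmb, the protease granzyme B, rose by 3.15 ± 0.28 and Id2, an inhibitor of E proteins, by 2.55 ± 0.23. Cd69, an early activation antigen, fell by 1.85 ± 0.18, and Ccnd3, cyclin D3, fell by 1.26 ± 0.07. The kinases Pim1 and Pim2 rose by 0.57 ± 0.11 and 0.92 ± 0.18, and Ccnd2 by 0.61 ± 0.14. Bcl2l1, which encodes the survival protein BCL-XL, fell by 1.10 ± 0.09, Bcl6 by 1.22 ± 0.11 and Tnfrsf13b by 0.73 ± 0.10. Pim3, Bcl2, Mcl1 and Lta did not pass. Pim1 and the genes that follow it here are named after their values were seen.

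Markers of other cells were read on the same arrays, since Socs3 and receptors such as Il6ra and Csf2rb are also made by myeloid cells. Against 16.3% of all genes called higher and 11.7% lower, the macrophage and monocyte list had 9 of 14 genes higher and 0 lower, with summed intensities of 130 to 181 in normal and 1971 to 2057 in tumour arrays, and C1qa, C1qc and Cd163 at least 16.3-fold, 11.9-fold and 11.7-fold higher. The neutrophil list had 8 of 11 higher and 0 lower (sums of 204 to 267 against 2200 to 2239), with S100a8 13.2-fold and Ltf at least 2.85-fold higher and Mmp9 called higher. Marco and Cxcr2 lay at or below background in the tumour arrays, as did 7 macrophage and 4 neutrophil markers in the normal arrays. Besides Marco, the macrophage markers Itgam, Cd14, Cd68 and Fcgr1 did not pass, with Itgam at 13.3 and 18.1 against 21.9 and 0.58. Besides Cxcr2, the neutrophil markers Elane and Mpo did not pass, and the groups overlapped on both. Dendritic cell markers had 4 of 8 higher and 0 lower (232 to 238 against 813 to 1135), namely H2-Aa, H2-Ab1, Cd74 and Itgax. The tumour sum was mostly H2-Aa (61.2 and 71.7 against 425 and 646). Flt3 (-0.66), Siglech (-0.34), Xcr1 and Zbtb46 did not pass, with Zbtb46 at or below background in both tumour arrays. NK cell markers had 2 of 7 higher and 0 lower, Gzma and Klrd1, and their sum (1124 to 1138 against 5207 to 5213) was mostly Gzma, which T cells can make too (1034 and 1035 against 5030 and 5040), while Ncr1 and Klra8 lay at or below background in both groups. B cell markers had Cd22 higher and Cd79b lower of 7 (365 to 398 against 214), the fall in the sum being that of Cd79b (321 and 294 against 52.1 and 63.5), with Cd79a and Pax5 at or below background in both groups. Erythroid and platelet markers had 2 of 6 higher, Alas2 and Pf4, and 0 lower (70.2 to 99.3 against 238 to 244), with Hba-a1 and Ppbp at or below background in both groups. The part of these cells in the values of Socs3, Socs2, Cish and the receptors was not tested. Of 10 DP markers 8 fell and 1 rose (61617 to 61989 against 27652 to 27903). Cd8a was 6.72-fold, Cd8b1 4.56-fold and Cd4 4.26-fold lower, all 3 above background on all 4 arrays. Ptcra rose by 1.72 ± 0.08 (607 and 608 against 1946 and 2065), whereas Cd3d fell 1.16-fold and Cd3e did not pass.

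**Figure D4:**
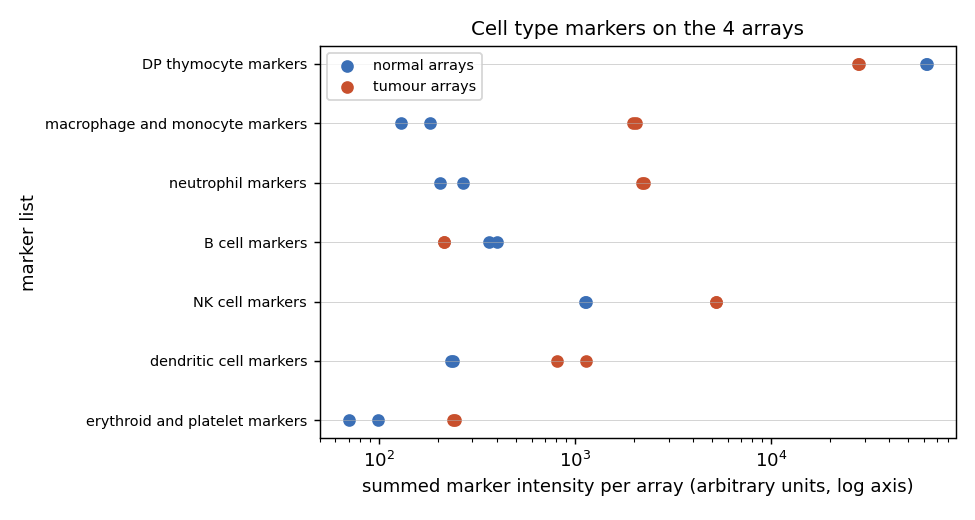
Summed intensity of the measured markers of each cell type (rows) on each array, on a log axis in arbitrary units, with normal arrays in blue and tumour arrays in red (points may coincide). Macrophage and neutrophil sums are at most 267 in the normal arrays and at least 1971 in the tumour arrays, while the DP sums are lower in the tumour arrays.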

How the data were processed

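RNA (100 ng) was converted to biotin-labelled cRNA by a 3' in vitro transcription kit and hybridized, per the labels' protocols. The authors deposited 1 linear intensity per probe set and array (45101 probe sets, 0.08 to 19270), brought to nearly one distribution. Per the submitters' processing notes RMA was used, whose output is on a log2 scale, whereas the deposited values are linear. How they were converted is not stated, and they were treated as linear intensities. The version and settings of RMA are not given in those sources. Such normalization hides shifts common to all genes.

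Log2 was taken with no offset and no filter. All 4 arrays were fitted with limma 3.58.1 (R 4.3.3, lmFit, eBayes with trend and robust prior, no covariate) over 45037 probe sets, leaving out 64 controls, with Benjamini-Hochberg adjustment at 0.05. To 2 residual degrees of freedom the prior contributed 7.27 (median), against 1.07 by default. The trend was used because replicate spread depends on intensity, and it was known that the default prior calls 0 probe sets. The members, lists and test were chosen with earlier results of these data known.

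Symbols came from the platform annotation (34945 probe sets with 1 symbol, 932 with several, 9160 with none) and were checked through Entrez numbers against RefSeq GRCm38.p6, where 18032 of 18193 genes matched and 0 changed. In each pathway list up to 6, and in each marker list up to 3, called genes with the largest change and no overlap between groups were named. Those said to be named later, and the further members of the marker lists, were named after their values were seen. Where both arrays of 1 group lay at or below background, they were raised to it and the ratio is given as at least N-fold. Promoter stretches came from RefSeq, and matched for 9 of the 10 members.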

Additional observations from a re-analysis of the deposited data

How the results depend on the processing

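The 6 higher and 7 lower member probe sets kept these numbers under median centring, renewed quantile normalization, an offset of 16 and removal of the dimmest 30 or 50 percent of probe sets. Leaving out 1 array gave 6 higher in each case and 5 to 7 lower members, 3325 to 3983 higher and 3184 to 4386 lower among all probe sets, and 17 to 19 higher and 14 to 16 lower pathway genes. The replicate numbers do not establish pairs. Deviations of same-numbered arrays correlated at 0.250, and with the number as a replicate block the members stayed at 6 and 7 and all probe sets went from 5084 and 5189 to 6125 and 6319.

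With the default prior, limma called 0 members, 0 probe sets and 0 pathway genes. Used with 1 probe set per gene, an alternative added after the data were seen, it called 2 higher and 2 lower members, 759 and 401 genes and 10 and 7 pathway genes. With 1 probe set per gene and the trend and robust prior, 3 members were higher and 3 lower, with 3156 and 2251 genes. With the mean of probe sets these were 2 and 3, with 1865 and 1764 genes. With the probe sets of the _a_at, _s_at and _x_at classes left out, 14 member probe sets remained, 4 higher and 2 lower, which are all 6 of the calls among them, and 3267 of all probe sets were higher. A 2-fold minimum left 4 lower members, 2666 higher and 2821 lower probe sets and 11 lower pathway genes.

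Spike scaling moved the median of all probe sets from -0.02 to -0.63 and gave 5 higher and 11 lower members, 2074 higher and 11539 lower probe sets and 13 higher and 33 lower pathway genes. It turned the sign of Jak1 1433804_at (-0.37), Jak3 1425750_a_at (-0.53), Stat3 1424272_at (-0.59) and 1426587_a_at (-0.44), Stat5a 1421469_a_at (-0.35) and Socs2 1418507_s_at (-0.022). None of these was called before, and Stat3 1426587_a_at and Stat5a 1421469_a_at then passed as lower (adjusted p = 0.0053 and 0.0378). The mean of probe sets turned Stat3 (-0.13) and Stat5a (-0.24). Leaving out 1 array turned the uncalled Jak2 1421065_at (-0.41 to 0.11), Jak3 1425750_a_at (-0.35 to 0.49), Stat3 1424272_at (-1.09 to 1.11) and Socs2 1438470_at (-2.80 to 0.078), 1441476_at (-3.30 to 0.79) and 1442586_at (-0.36 to 2.76). Dim probe sets limit what can be seen of Socs2.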
